A study of Homo sapiens with 2 samples.

Results

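The 40 genes described here are interferon-stimulated genes (ISGs), taken as a fixed list of symbols chosen with earlier results of these data known. They were matched to the gene IDs of the read count tables of REH and 697. All 40 were found among 57773 gene IDs. REH and 697 are established human cell lines of BCP-ALL, a leukemia of early B-lineage cells. REH has the ETV6/RUNX1 translocation and no intact ETV6 allele beside it, whereas 697 is an ETV6/RUNX1-negative line. Both were grown in serum-containing RPMI medium, and the labels name no interferon or other agent given to the cells. The tables used here hold 1 library per line, so that each difference below is between those libraries, with an error that covers read counting only and no measure of the spread between cultures.

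Interferons are secreted cytokines that cells release after sensing foreign nucleic acid. Type I interferons bind the receptor pair IFNAR1 and IFNAR2, which activates the kinases JAK1 and TYK2. Signaling from these kinases phosphorylates STAT2, which acts with IRF9 in the complex ISGF3. ISGF3 binds the interferon-stimulated response element (ISRE) in promoters and switches on ISGs, whose products detect viral RNA, block viral entry or replication, and tune the response itself. Many ISGs also have a basal level without added interferon.

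Gene reads came to 45188375 in REH and 41097497 in 697. Levels are given as CPM, the usual depth-normalised read count, with totals scaled by TMM, a method that balances the ratios of most genes. As a check of the labelled cell type, B precursor genes were read in both lines, with PAX5 at 792 CPM in REH and 1224 CPM in 697. All 13 B precursor markers reached 10 reads in at least 1 of the lines, although VPREB1, a surrogate light chain gene, had 3 reads in REH against 10039 in 697. Among T cell and plasmacytoid dendritic cell markers, CD3D, CD2, CLEC4C and GZMB were at 0 reads in both libraries, but others passed the threshold used below. CD3E had 45 reads in REH and 0 in 697, LILRA4 had 44 and 2, and CD8A had 0 and 10. The summed level of 7 myeloid markers was 261 CPM in REH and 2.30 CPM in 697. MPO (12643 and 12 reads) made up nearly all of it in REH, and CSF1R (30 and 61 reads) most of it in 697. ITGAM (403 and 0 reads) and CD33 (22 and 1 reads) were also higher in REH, CD14 had 29 and 8 reads, and LYZ and FCGR3A had 2 reads or fewer in each line. The 4 plasmacytoid dendritic cell markers summed to 8.67 and 0.0541 CPM, of which NRP1 had 392 and 0 reads. The 5 T cell markers found among the IDs summed to 0.935 and 0.298 CPM, and the 5 fibroblast markers to 9.51 and 10.5 CPM. Whether these markers have a part in the results below was not tested. In such bulk libraries, fewer cells that express a gene and less RNA per cell cannot be told apart.

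Most ISGs were read more often in REH than in 697. The comparison took genes with 10 or more reads in at least 1 library, which 39 of the 40 reached. The remaining gene, OASL, had 5 reads in REH against 7 in 697. The log2 ratio of REH over 697 was above 0 for 27 of the 39 and below 0 for 12, whereas 52.1% of all genes compared were above 0. Its 95% counting interval lay wholly above 0 for 24 genes, wholly below 0 for 10, and spanned 0 for 5 genes. These counts were not made over all genes compared, so they are not read as a trait of ISGs. The median log2 ratio was 0.98, with an interquartile range from -0.08 to 1.995, whereas the median over all 19145 genes compared was 0.05 and their interquartile range -0.65 to 0.85. A gene was called higher in a line when the log2 ratio reached 2 or -2, a 4-fold difference. This threshold was passed towards REH by 9 of the 39 ISGs (23.1%), against 12.5% of all genes compared and 10.9% of protein-coding genes. It was passed towards 697 by 1 ISG (2.56%), against 8.15% of all genes and 7.17% of protein-coding genes. With the minimum raised to 100 reads, 9 of 37 ISGs (24.3%) and 8.81% of all genes were higher in REH, and 0 of 37 ISGs and 6.92% of all genes were higher in 697. The 9 genes were MX1, IFIT1, IFIT3, USP18, HERC6, IFI6, IFI44, GBP1 and IFIT2, and the gene higher in 697 was EPSTI1. At a log2 ratio of 1, 19 of the 39 were higher in REH (22.4% of all genes) and 2 in 697 (17.4%).

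**Figure D1:**
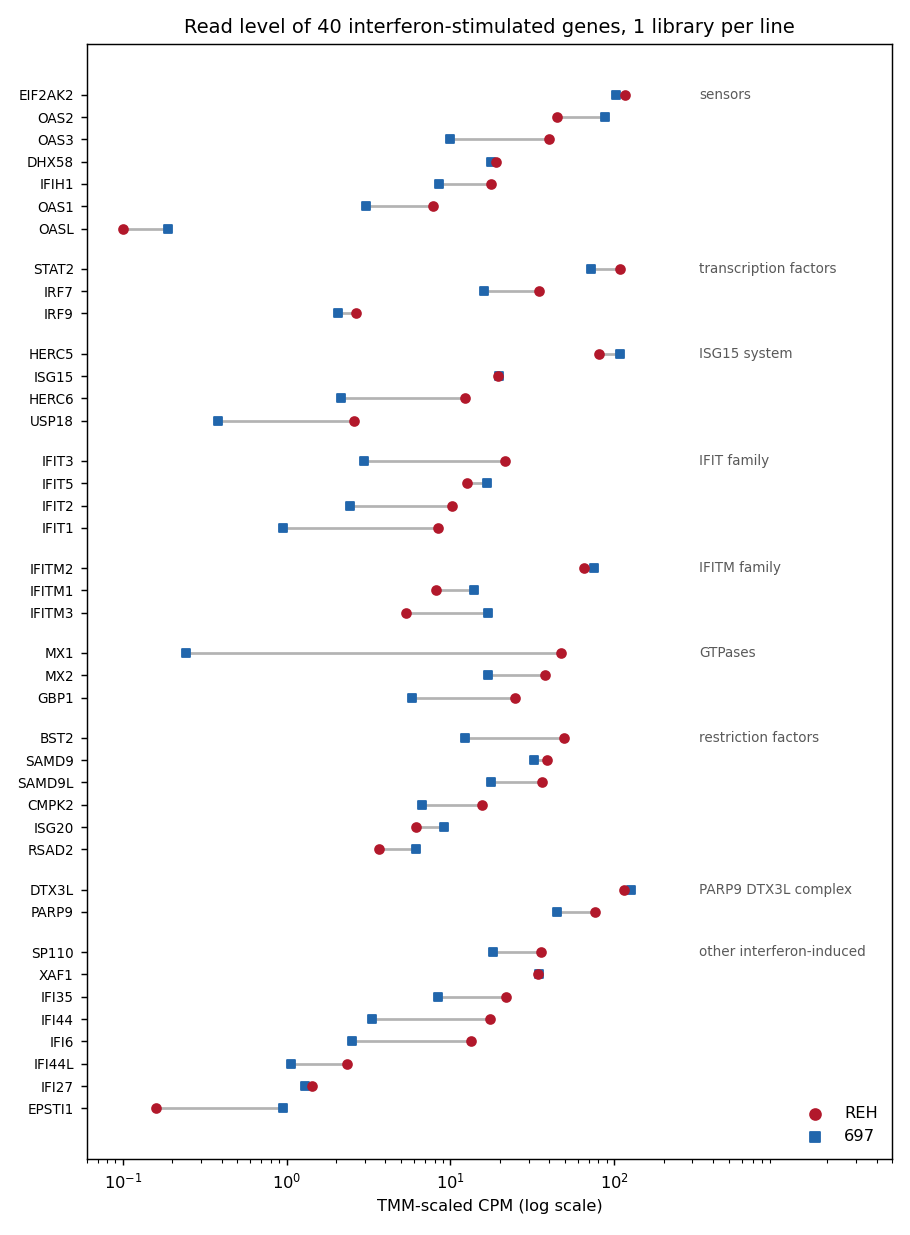
TMM-scaled CPM (log axis) of the 40 ISGs in REH (red circles) and 697 (blue squares), grouped by role, with a grey line joining the values of a gene. MX1 has the longest line, from 0.244 CPM in 697 to 47.5 CPM in REH, whereas ISG15 and XAF1 nearly coincide.

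The summed level of the 40 genes was 1214 CPM in REH (95% Poisson interval 1204 to 1223) and 929 CPM in 697 (919 to 939). This sum is not corrected for gene length, and longer genes weigh more in it. EIF2AK2, DTX3L, STAT2, HERC5 and PARP9 made up 40.8% of the sum in REH, and DTX3L, HERC5, EIF2AK2, OAS2 and IFITM2 made up 54.0% in 697. None of these 7 genes passed the threshold. The median of the 40 levels was 19.3 CPM for REH, and for 697 it was 9.55 CPM.

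**Figure D2:**
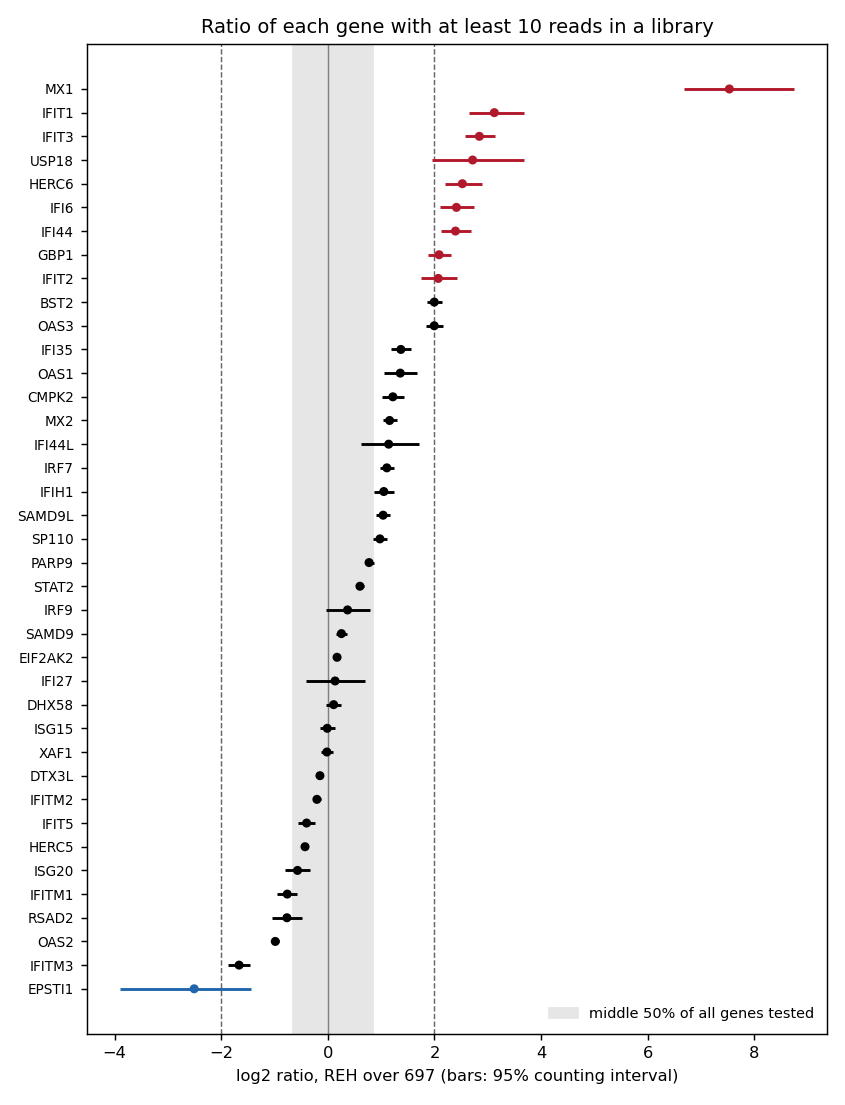
Log2 ratio, REH over 697, of the 39 ISGs compared (points) with 95% counting intervals (bars), ordered by ratio. Red marks the 9 genes at 2 or above and blue the gene at -2 or below, dashed lines mark the threshold, and the grey band is the interquartile range of all 19145 genes. MX1 stands apart at 7.53, and BST2 and OAS3 lie just under the upper dashed line.

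The promoters of these genes were then inspected for the ISRE, the element ISGs are known for. RefSeq promoter windows (GRCh38.p14, 250 bases before to 50 bases after each annotated start site) were found for 32 of the 40 genes. DHX58, OAS2, OASL, IRF7, USP18, IFIT2, IFITM2 and MX2 had no entry. The ISRE core, GAAA followed by any 2 bases and another GAAA, searched on both strands with overlapping matches counted, was present for 23 of the 32 genes (71.9%), against 4.38% of the 27305 genes in the table and 3.57% of its 35116 windows. Of 46 matches, 45 began before the start site and 1 after it, with a median position of -99 bases relative to the start. Some, such as that of DTX3L at -6, run across the start site. A site that falls in several windows, as in IFI27 and IFI44, was counted in each. The core was found for 6 of the 7 genes higher in REH that had a window and for 17 of the other 25. Genes with the core had a median log2 ratio of 0.26 (23 genes, from -2.51 to 7.53), and those without it 1.04 (9 genes, from -0.02 to 2.52). A match is a description of the letters and not of binding. The stretches below show the core in capitals, on the strand of the gene, for genes higher in REH, for ISGs of various roles that were not, and for EPSTI1, and a core on the opposite strand reads TTTC, 2 bases and TTTC. Capitals at the end of a stretch belong to a neighbouring copy.
MX1 (chr21:41420559-41420588, + strand): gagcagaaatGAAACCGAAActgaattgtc
IFIT1 (chr10:89392497-89392526, + strand): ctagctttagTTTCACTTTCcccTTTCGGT
IFIT3 (chr10:89332425-89332454, + strand): acagattctgTTTCAGTTTCccctcaagag
IFIT5 (chr10:89414513-89414542, + strand): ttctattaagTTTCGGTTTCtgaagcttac
IFI44 (chr1:78649761-78649790, + strand): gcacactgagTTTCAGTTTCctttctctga
IFI6 (chr1:27672329-27672358, - strand): ggagagagggGAAAATGAAActctgcagag
IFI6, next copy (chr1:27672288-27672317, - strand): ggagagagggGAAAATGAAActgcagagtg
GBP1 (chr1:89065316-89065345, - strand): aacgaagtacTTTCAGTTTCatattactct
BST2 (chr19:17405741-17405770, - strand): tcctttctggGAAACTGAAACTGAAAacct
ISG15 (chr1:1013374-1013403, + strand): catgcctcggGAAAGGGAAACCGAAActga
HERC5 (chr4:88456984-88457013, + strand): ctcattacagTTTCCTTTTCCTTTTCgatt
IFITM3 (chr11:320876-320905, - strand): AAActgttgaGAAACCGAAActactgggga
EPSTI1 (chr13:42992272-42992301, - strand): ctgattctgaGAAACCGAAActcagctgtt

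In BST2, ISG15 and HERC5 the core is present as a pair of overlapping copies, so that the capitals run on. The core of MX1 starts 11 bases after its annotated start, in a further window of the same gene the core lies 196 bases before the start, and the remaining window has none. HERC6 had a window without the core and was higher in REH, whereas its neighbour HERC5, with 3 matches, was not.

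**Figure D3:**
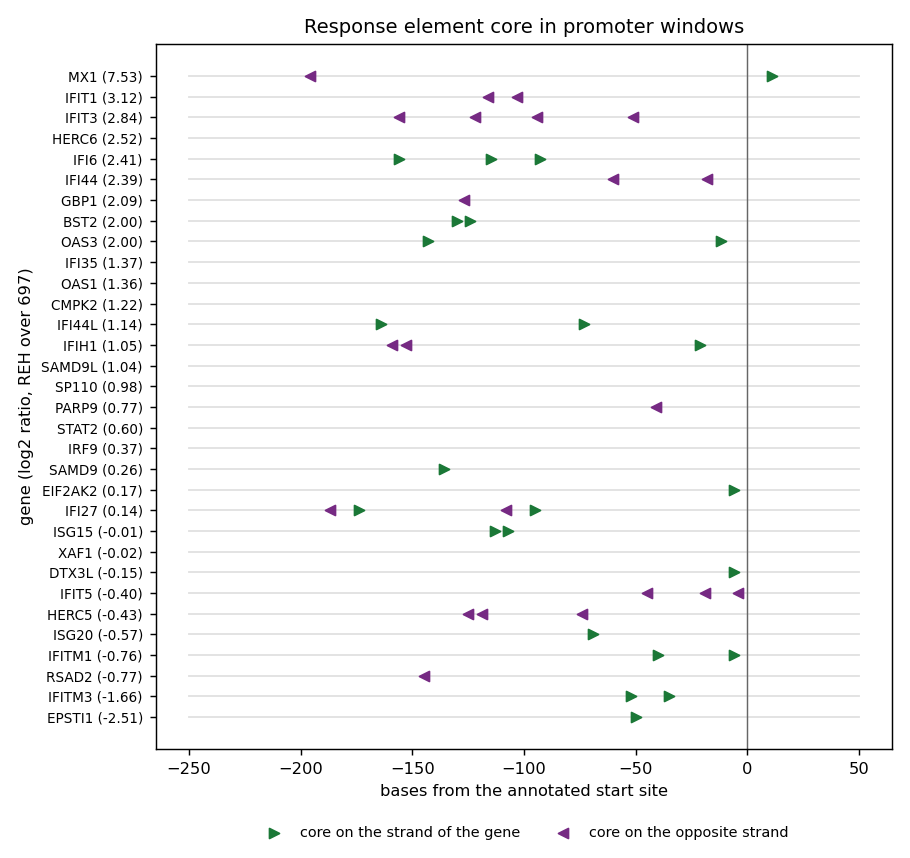
Position of each ISRE core match relative to the annotated start site (bases, 0 is the start) for the 32 ISGs with a promoter window, ordered by log2 ratio (in parentheses), with windows of different start sites of a gene laid over each other. Arrowheads give the strand of the match, and matches are seen at the top of the order (MX1, IFIT1, IFIT3) as well as at the bottom (IFITM3, EPSTI1).

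Among the interferon-induced GTPases, MX1 and GBP1 were higher in REH and MX2 did not pass the threshold, and the MX1 ratio was the largest of the 39. MX1 (ENSG00000157601, chromosome 21, 41420020 to 41470071, GENCODE 44 on GRCh38), a GTPase that traps viral nucleocapsids, had 2387 reads in REH against 9 in 697, or 47.5 and 0.244 CPM. Its log2 ratio was 7.53 (counting interval 6.68 to 8.74), a 185-fold difference. The strand columns of the files held nearly equal shares of reads over all genes, so they do not tell sense from antisense RNA. The ratio was 6.83 in strand column 3 (1299 and 8 reads) and 9.34 in strand column 4 (1299 and 1 reads). MX2 (ENSG00000183486), its paralog that restricts retroviruses at the nuclear pore, lies 10.6 kb away and had 1899 and 625 reads (log2 ratio 1.16, with limits of 1.03 and 1.29). The ratios of these paralogs differed by 6.37 on the log2 scale (interval 5.44 to 7.30), a difference that no scaling of the totals can alter. GBP1 (ENSG00000117228, chromosome 1), an interferon-induced guanylate-binding protein, had 1239 reads in REH against 214 in 697, with a log2 ratio of 2.09 (interval 1.88 to 2.31). The interval of GBP1 reached below the threshold.

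The IFIT genes, on chromosome 10 between 89283694 and 89421605, encode tetratricopeptide proteins that bind viral RNA. IFIT1 (ENSG00000185745) had 420 reads in REH against 35 in 697 (8.36 and 0.947 CPM), and its log2 ratio was 3.12 (interval 2.64 to 3.68). For IFIT3 (ENSG00000119917) there were 1077 and 110 reads, with a ratio of 2.84 (interval 2.56 to 3.14). IFIT2 (ENSG00000119922) had 517 and 90 reads and a ratio of 2.07 (interval 1.75 to 2.42), which was 1.93 in strand column 4. These 3 genes were thus higher in REH. IFIT5 (ENSG00000152778), 8.08 kb beyond IFIT1, was not, with 636 and 616 reads (log2 ratio -0.40, with limits of -0.56 and -0.24). The ratio of IFIT1 exceeded that of IFIT5 by 3.52 (interval 3.001 to 4.04), while IFIT1 and IFIT3 differed by 0.28 (interval -0.29 to 0.85).

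Enzymes of the ISG15 system were split. ISG15 (ENSG00000187608), a ubiquitin-like protein that is conjugated to other proteins, had 983 reads in REH against 728 in 697, or 19.6 and 19.7 CPM. Its log2 ratio of -0.01 (interval -0.15 to 0.13) changed sign with the scaling and was 0.30 with unscaled totals. HERC5, the main ISG15 ligase in human cells, had 4039 and 3993 reads (log2 ratio -0.43, with limits of -0.49 and -0.36). HERC6 (ENSG00000138642), a related HECT domain gene 14.0 kb away on chromosome 4, had 621 and 79 reads and was higher in REH at 2.52 (interval 2.19 to 2.89). USP18 (ENSG00000184979, chromosome 22), the protease that removes ISG15 and also restrains signaling at IFNAR2, was higher in REH with 129 and 14 reads (log2 ratio 2.71, with limits of 1.96 and 3.67). Of the 50-base stretches in the USP18 transcripts, 23.1% also occur in transcripts of other genes. Reads from such stretches can map to several places, and multimapping reads were not counted, so that the USP18 counts are uncertain.

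None of the sensors of foreign nucleic acid passed the threshold. OAS3 (ENSG00000111331) makes the 2-5A messenger that activates RNase L, and it had 1998 reads in REH against 368 in 697. Its log2 ratio of 1.995 (interval 1.84 to 2.16) lay just under the threshold, and was past it with unscaled totals (2.30) or with TMM factors from protein-coding genes. OAS1, of the same enzyme family, had 392 and 112 reads (log2 ratio 1.36, with limits of 1.06 and 1.68). OAS2 went the other way, with 2240 and 3260 reads (log2 ratio -0.99, with counting limits of -1.06 and -0.91), although OAS1, OAS3 and OAS2 lie side by side on chromosome 12. The ratio of OAS3 exceeded that of OAS2 by 2.98 (interval 2.80 to 3.16). IFIH1, which encodes the long dsRNA sensor MDA5, had 885 and 314 reads (log2 ratio 1.05, with limits of 0.86 and 1.24). DHX58 (LGP2, its co-sensor) had 960 and 654 reads, and the interval of its ratio (-0.04 to 0.26) spanned 0. EIF2AK2, the kinase PKR that stops translation upon dsRNA binding, had 5814 and 3791 reads, and its ratio was 0.17 (interval 0.11 to 0.23).

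The transcription factors were read in both lines. STAT2, the DNA complex subunit that is particular to type I and type III interferon signaling, had 5471 reads in REH against 2649 in 697 (log2 ratio 0.60, with limits of 0.54 and 0.67). IRF7, which drives interferon alpha genes, had 1747 and 596 reads (log2 ratio 1.11, with limits of 0.97 and 1.24). IRF9, the DNA-binding partner of STAT2, was scarce, with 134 and 76 reads or 2.67 and 2.06 CPM, and its interval spanned 0 (-0.04 to 0.80). None of the 3 passed the threshold.

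The IFITM genes, which encode small membrane proteins that block viral fusion, formed the family with ratios below 0 for all 3 members. IFITM3 (ENSG00000142089, chromosome 11) had 268 reads in REH against 625 in 697 (log2 ratio -1.66, with limits of -1.88 and -1.46), and IFITM1 had 411 and 512 reads (log2 ratio -0.76, with limits of -0.95 and -0.57). Per kb, by either length, IFITM2 was the highest of the family in both lines, with 3291 and 2788 reads. Its small ratio of -0.20 (interval -0.28 to -0.13) turned to 0.10 with unscaled totals, whereas those of IFITM1 and IFITM3 stayed below 0 under each scaling tried. Since 15.4% to 20.7% of the 50-base stretches of these genes occur elsewhere, mostly in each other, how their reads divide is uncertain.

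Other restriction factors gave a mixed picture. BST2 (ENSG00000130303, tetherin), which holds budding virions on the cell surface, had 2471 reads in REH against 455 in 697, or 49.2 and 12.3 CPM. Its log2 ratio of 1.996 (interval 1.85 to 2.14) was just below the threshold, like that of OAS3. RSAD2 (viperin), a radical SAM enzyme that makes a chain-terminating nucleotide, had 183 and 229 reads (log2 ratio -0.77, with limits of -1.06 and -0.48). CMPK2, a mitochondrial nucleotide kinase whose gene overlaps the start of RSAD2 on the other strand, had 787 and 248 reads (log2 ratio 1.22, with limits of 1.01 and 1.43). The ratios of this head-to-head pair differed by 1.99 (interval 1.64 to 2.33). ISG20, an exonuclease for single-stranded RNA, had 310 and 338 reads (log2 ratio -0.57, with limits of -0.80 and -0.34). SAMD9 and SAMD9L, paralogs on chromosome 7 that restrict poxviruses and growth, had 1944 and 1197 reads (log2 ratio 0.26) and 1818 and 651 reads (log2 ratio 1.04).

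PARP9 and DTX3L encode partners in a complex that modifies histones and viral proteins, and their genes share a start region on chromosome 3. A single ISRE core falls in the promoter windows of both, at 122564322 to 122564351 with flanks. Read on the strand of each gene, it begins 6 bases before the start of DTX3L and 41 bases before that of PARP9.
DTX3L (chr3:122564322-122564351, + strand): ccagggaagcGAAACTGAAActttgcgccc
PARP9 (chr3:122564322-122564351, - strand): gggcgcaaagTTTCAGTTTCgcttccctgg

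PARP9 had 3841 reads in REH against 1652 in 697 (log2 ratio 0.77, with limits of 0.69 and 0.86), and DTX3L had 5749 and 4682 reads (log2 ratio -0.15, with limits of -0.20 and -0.09). The DTX3L ratio was 0.16 with unscaled totals. The ratios of this pair differed by 0.92 (interval 0.82 to 1.02). The genes overlap on opposite strands, and counting by strand added 6.35% and 11.6% to the PARP9 reads of REH and 697 and 4.24% and 4.08% to those of DTX3L.

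Among the remaining interferon-induced genes, IFI6 and IFI44 were higher in REH. IFI6 (ENSG00000126709, chromosome 1), a small membrane protein with antiapoptotic and antiflaviviral activity, had 669 reads in REH against 92 in 697 (log2 ratio 2.41, with limits of 2.10 and 2.75). IFI44 (ENSG00000137965) had 875 and 122 reads (log2 ratio 2.39, with limits of 2.12 and 2.68), and its neighbour IFI44L, which dampens the response, had 118 and 39 reads (log2 ratio 1.14, with limits of 0.62 and 1.71). IFI35 had 1091 and 310 reads (log2 ratio 1.37) and the nuclear body gene SP110 had 1800 and 672 reads (log2 ratio 0.98). XAF1, an antagonist of the apoptosis inhibitor XIAP, was level at 34.1 and 34.5 CPM, with a ratio of -0.02 whose sign changed with the scaling. IFI27, a widely used blood marker of an interferon response, was low in both lines with 72 and 48 reads (interval -0.41 to 0.70). EPSTI1 (ENSG00000133106, chromosome 13) was the ISG higher in 697, but it rested on 8 reads in REH and 35 in 697 (log2 ratio -2.51, with limits of -3.89 and -1.44). In strand column 3 its ratio was -1.27, short of the threshold.

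Many of the ISGs are clustered in the genome, and the ratios of neighbours often differed beyond counting error. There were 18 pairs within 200 kb of each other, made up of 22 of the 40 genes. A difference of ratios within a pair is free of the scaling. Its counting interval excluded 0 for 17 of the 18 pairs, the exception being IFIT1 and IFIT3. Such intervals cover counting error only, and several pairs have a gene in common. No share was computed for pairs of other genes, so this count is not read as a trait of ISGs. After MX1 and MX2 the widest gaps were those of IFIT1, IFIT3 and IFIT2 over IFIT5, of OAS3 over OAS2 and of HERC6 over HERC5 (2.95, interval 2.61 to 3.29). Smaller gaps were found for SAMD9L over SAMD9 (0.78, interval 0.62 to 0.95) and IFITM2 over IFITM1 (0.56, interval 0.36 to 0.76).

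**Figure D4:**
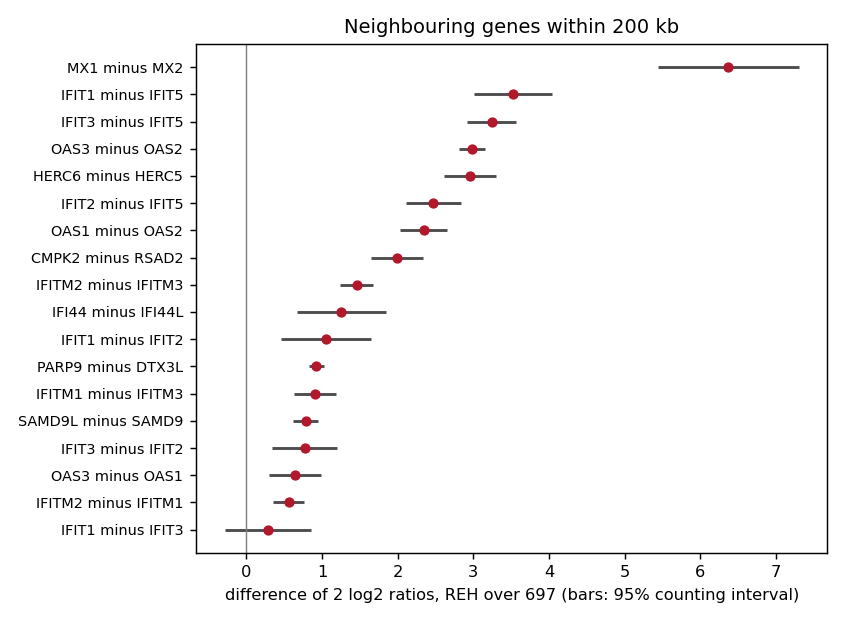
Difference between the log2 ratios (REH over 697) of 18 pairs of ISGs within 200 kb (points) with 95% counting intervals (bars). The pair MX1 and MX2 lies at 6.37, and the bar of IFIT1 and IFIT3 crosses 0.

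Levels of different genes were ranked per kb, first by the union of all annotated exons and then by the canonical transcript. By the union BST2 (44.6 CPM per kb) was the highest ISG in REH, followed by IFITM2 (40.8), ISG15 (22.6), DTX3L (19.8) and HERC5 (16.9). By the union the same 5 genes led in 697, with IFITM2 (47.0 CPM per kb) first, ISG15 and HERC5 (22.7 each) and DTX3L (21.97) next, and then BST2 (11.2). The order depended on the length used. By the canonical transcript IFITM2 (65.1 CPM per kb) came before BST2 (49.1) in REH, followed by ISG15 (30.7), PARP9 (25.1) and STAT2 (24.7). In 697 IFITM2 (75.01 CPM per kb), ISG15 (30.9) and HERC5 (30.8) stayed in front, and BST2 was 10th (12.3). IFITM3 was 11th in 697 by the union (5.95 CPM per kb) and 4th by the canonical transcript (27.7 CPM per kb). MX1 was 25th in REH at 2.64 CPM per kb over a union of 17.98 kb, but 10th at 17.1 CPM per kb over the 2.78 kb of its canonical transcript. In 697 it was last by the union and 39th of 40 by the canonical transcript.

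To see whether the rest of the pathway differed likewise, lists of its other parts were inspected. The interferon genes themselves were almost silent. Of 21, 13 had 0 reads in both libraries and 2, IFNW1 and IFNA21, had at least 10 reads in 697. The 16 type I genes of the chromosome 9 cluster had 0 reads in total in REH and 47 in 697, from 6 genes. The sum of 1.27 CPM in 697 was 21.3-fold a floor of 3 reads in REH (0.0597 CPM after scaling). This fold leaves out the counting error of the 47 reads and is not a lower bound. IFNW1 had 23 reads, IFNA21 11, IFNA14 7 and IFNB1 4 in 697. The IFNA genes resemble each other closely, and their split is uncertain. IFNG had 0 reads in both libraries.

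Receptors and kinases were read in both lines, and IFNLR1 stood apart. IFNAR1 had 3060 reads in REH against 1592 in 697 (60.9 and 43.1 CPM, log2 ratio 0.50). IFNAR2 had 601 and 517 reads (12.0 and 14.0 CPM, log2 ratio -0.23, which was 0.08 with unscaled totals), and counting by strand added 67.2% and 60.3% to its reads. JAK1 had 6132 and 11002 reads (log2 ratio -1.29, with limits of -1.33 and -1.24). TYK2 had 9002 and 5593 reads (log2 ratio 0.24). IFNLR1, the receptor subunit for type III interferons, was higher in 697, with 11 reads in REH and 1280 in 697 (0.219 and 34.6 CPM, log2 ratio -7.24, interval -8.31 to -6.46). It was the only gene of this list of 10 past the threshold (10%, against 8.15% of all genes towards 697), and the median of the list was 0.18.

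Of 14 tested genes for nucleic acid sensing upstream of interferon, 1 (7.14%) was higher in REH and 0 were higher in 697, with a median log2 ratio of -0.12. Of all genes compared, 12.5% were higher in REH and 8.15% in 697. The sensing gene higher in REH was TLR7, an endosomal receptor for single-stranded RNA, with 163 and 1 reads (log2 ratio 6.32, with limits of 4.41 and 12.22). RIGI (23.6 and 23.0 CPM, log2 ratio 0.03) and MAVS (76.2 and 54.6 CPM, log2 ratio 0.48), the cytosolic RNA sensor and its adaptor, were present in both lines. The DNA sensor CGAS had 1643 and 456 reads (log2 ratio 1.40, with limits of 1.25 and 1.56) and its adaptor STING1 429 and 248 (log2 ratio 0.35). IRF3, the factor downstream of these adaptors, had 2817 and 1914 reads (log2 ratio 0.11). Of 5 other interferon regulatory factors tested, IRF5 was higher in REH (426 and 15 reads, log2 ratio 4.34, interval 3.65 to 5.23) and IRF8 higher in 697 (320 and 953 reads, log2 ratio -2.02, interval -2.21 to -1.83). IRF8 was at -1.71 with unscaled totals, short of the threshold. IRF1 had 8031 and 2533 reads (log2 ratio 1.22). None of 5 inhibitors tested passed the threshold, and their median was -0.41.

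A further list of 39 tested ISGs outside the 40, like them chosen with earlier results of these data known, differed less between the lines. Its median log2 ratio was 0.19, with 3 genes (7.69%) higher in REH and 0 higher in 697. The share towards REH was below that of all genes compared (12.5%) and of protein-coding genes (10.9%). Towards 697 the share of all genes was 8.15%. These were PLSCR1, a phospholipid scramblase (2911 and 477 reads, log2 ratio 2.16), IFI30, a lysosomal thiol reductase with 21 and 1 reads (interval 1.31 to 9.32, named after its values were seen), and TRIM14, an adaptor at MAVS. For TRIM14 the unstranded table gave 4350 and 29 reads (log2 ratio 6.76), but the strand columns added up to 5071 and 440 reads, with a log2 ratio of 3.08.

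**Figure D5:**
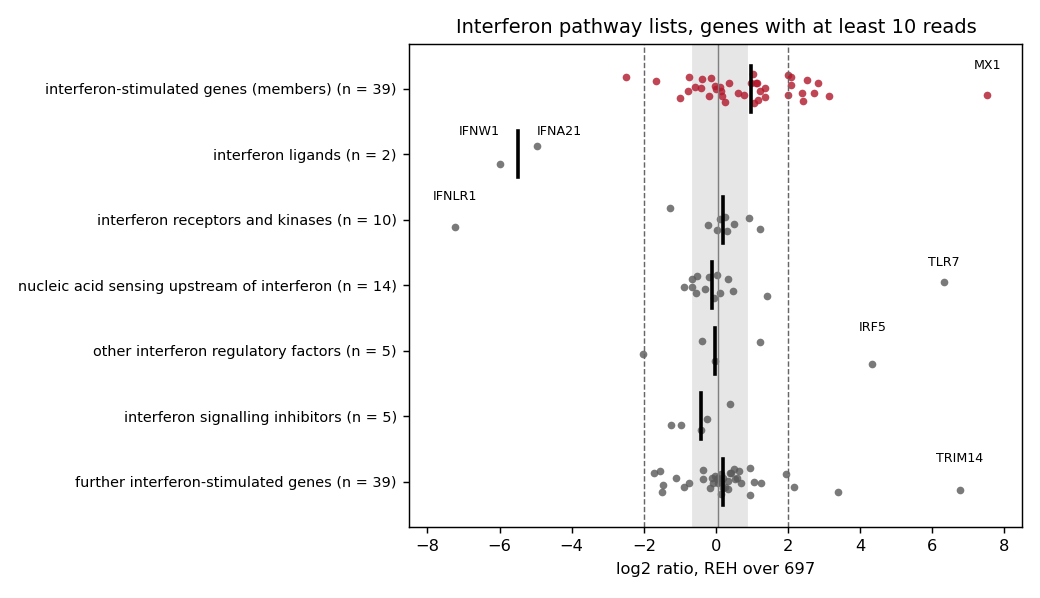
Log2 ratio, REH over 697, of each gene with 10 or more reads in the 40 ISGs (red) and in 6 lists of other interferon pathway genes (grey), with the median of a list as a black bar, the interquartile range of all 19145 genes as a grey band and the threshold dashed. The median of the ISGs is at 0.98 and that of the further ISGs at 0.19, and genes beyond 4 in size are named.

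Sharing of 50-base stretches with annotated transcripts of genes elsewhere was limited for most of the 40 genes. In 15 of them no such stretch was shared, the median share was 0.335%, and only USP18, IFITM1, IFITM2 and IFITM3 exceeded 10%. Genes overlapping the ISG in position, matches on the opposite strand and copies outside annotated transcripts were not searched. GBP1 was next at 7.76%. Counting by strand added most to SP110 (12.9% in REH and 13.7% in 697) and OAS1 (10.5% and 14.3%), both of which overlap a gene on the opposite strand, and 8.84% to MX1 in REH.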

How the data were processed

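The authors deposited unnormalised gene-level read counts, 1 library per line. Per the study's methods, libraries were made with a poly(A) TruSeq protocol and aligned to hg38 with STAR. The labels instead describe ribodepleted, stranded libraries, and the submitters' processing notes list hg19. The annotation release is not given in the sources used here. Reads on either strand were used, because the strand columns held nearly equal shares (50.1% in strand column 3 for REH, 50.2% for 697). Multimapping reads (10.8% and 15.4% of reads) are absent from the counts. So are ambiguous reads, which fell in more than 1 gene (4.58% in REH and 4.41% in 697).

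Symbols, positions and exon lengths came from GENCODE 44 (51996 of 57773 IDs matched). In the added lists, IKBKE, C19orf66, CCL5 and TRAC matched no ID. The 40 genes and all lists were chosen with earlier results of these data known. Genes named outside the 40 were those past the threshold, at 100 or more reads in a library, plus receptor, kinase, sensor and factor genes fixed by name. Some of these, and some markers, are not reported here. IFI30 and the interferon genes were named after their values were seen.

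Genes reaching 10 reads in at least 1 library were compared. TMM (trimmed mean of M-values) factors (edgeR 4.0.16, R 4.3.3) were 1.11 for REH and 0.899 for 697. The log2 ratio is REH over 697 with 0.5 reads added. Counting intervals are exact 95% Clopper-Pearson intervals of the share of reads from REH, differences between genes have Wald intervals, and all cover counting error only. With 1 library per line no test and no p-value is possible. The floor of 3 reads is 0.0664 CPM in REH and 0.0730 CPM in 697 before scaling. The steps were tested on simulated data. The planned protein identities were not computed, and 50-base stretches shared between transcripts were counted in their place. An interval of the median over genes served only to sort the alternatives into same or moved, and its limits are not given. Alternatives were DESeq2 1.42.0 size factors, unscaled totals, totals without mitochondrial genes, protein-coding TMM, other read minimums, other added reads, another threshold and each strand column.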

Additional observations from a re-analysis of the deposited data

How the results depend on the processing

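The threshold is a choice, and BST2 and OAS3 lay just under it at 1.996 and 1.995. The number of ISGs higher in REH was between 8 and 11 under the alternatives other than a threshold of 1, which gave 19. The number higher in 697 was 0 in strand column 3 or with a minimum of 50 reads and 2 at a threshold of 1. The median log2 ratio stayed between 0.70 (strand column 4) and 1.28 (unscaled totals). Unscaled totals moved the median of all genes from 0.05 to 0.36. A scaling shifts every ratio alike, so the excess of the ISG median over that of all genes, 0.92, cannot change between scalings. With other read minimums, 5 reads added or a single strand column, this excess was between 0.67 (strand column 4) and 0.99 (minimum of 50 reads). None of the 10 called ISGs changed direction under the alternatives run for it, and EPSTI1 has no value at a minimum of 50 reads. Called genes outside the 40 were recomputed only under the other scalings and with the strand columns summed. Small ratios of ISG15, XAF1, DTX3L and IFITM2 changed sign with the scaling. The summed level of the 40 genes was 1350 CPM in REH and 835 CPM in 697 with unscaled totals, and 1202 CPM in REH with DESeq2 size factors. With the canonical transcript as length, chosen after seeing the data, the median was 7.96 CPM per kb in REH and 3.002 in 697, against 3.77 and 1.66. No paired analysis was possible because there is a single library for REH and for 697, and for the same reason no replicate could be left out.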
